A study of Mus musculus with 5 samples.

Results

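Helper T cells divide into programs that are each run by a few master factors, cytokines and receptors, and 9 of these genes were followed here in regulatory T cell (Treg) preparations. They were taken by symbol from the deposited gene table and were Tbx21, Stat4, Il12rb2, Il18r1 and Ifng of type 1 helper (Th1) cells, Stat3 and Il17a of type 17 helper (Th17) cells, and Bcl6 and Il21 of follicular helper (Tfh) cells. All 9 were found among the 48440 genes of the table, and all 9 had enough counts to be among the 14460 genes tested. RNA-seq had been run on freshly isolated, untreated splenic CD4+CD25+ Tregs, enriched with magnetic beads from C57B/6 mice on a high-fat diet. The WT group held 2 libraries from wild-type mice, and the KO group held 3 libraries from mice with the CD4-KLF10-KO genotype, in which KLF10, a Krüppel-like zinc-finger transcription factor that TGF-β induces, is removed in CD4+ T cells. The labels place the deletion in CD4+ T cells and do not say that other cells in the preparations carry it. The sources used here give no age, Cre line, deleted exons or pooling of mice. Nothing in the labels says that each library came from a separate mouse, so p-values reflect only how these 5 libraries vary, which may be partly technical.

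In Th1 cells, IL-12 acts through a receptor chain encoded by Il12rb2 and the signal transducer STAT4, IL-18 acts through a receptor chain encoded by Il18r1, and T-bet (Tbx21) drives transcription of Ifng. STAT3 carries IL-6, IL-21 and IL-23 signals toward IL-17A in Th17 cells and also acts upstream of BCL6, the repressor that defines Tfh cells, which secrete IL-21. Tregs can take up parts of these programs: T-bet-bearing Tregs restrain Th1 responses, STAT3 in Tregs is needed to restrain Th17 responses, and BCL6 marks follicular regulatory cells.

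The table had between 25622614 and 30521797 total counts per library. Klf10 itself had 668 and 588 counts in WT and 408, 331 and 271 counts in KO, with all KO libraries below both WT libraries. Its log2 fold change of −0.84 (SE 0.22) missed the threshold over all genes in edgeR (adjusted p = 0.136) and passed it in DESeq2 (log2 fold change −0.83, adjusted p = 0.0195). The 8 Treg markers, among them Foxp3, were measured in every library, with a summed level of 1820 to 2242 CPM (counts per 1000000 reads, scaled between libraries by TMM) in WT and 1806 to 1843 CPM in KO. The 15 pan-T cell markers summed to 3303 to 3841 CPM in WT and 2902 to 3021 CPM in KO, and all KO libraries lay below both WT libraries for 11 of them, as they did for 17.4% of all genes tested. Markers of other cells were present as well. The 13 macrophage and monocyte markers summed to 568.7 to 755.8 CPM in WT and 1281 to 1580 CPM in KO, and the 12 erythroid markers to 14700 to 20660 CPM in WT and 55890 to 92100 CPM in KO, with no library overlapping. The 12 B cell markers summed to 2983 to 4306 CPM in WT and 3529 to 3824 CPM in KO. The 6 dendritic cell markers summed to 26.1 to 29.4 CPM in WT and 34.0 to 36.9 CPM in KO, and the 10 neutrophil markers to 98.99 to 143.4 CPM in WT and 57.3 to 201.4 CPM in KO. In such mixed preparations, fewer cells of a type and less RNA per cell cannot be told apart.

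**Figure D1:**
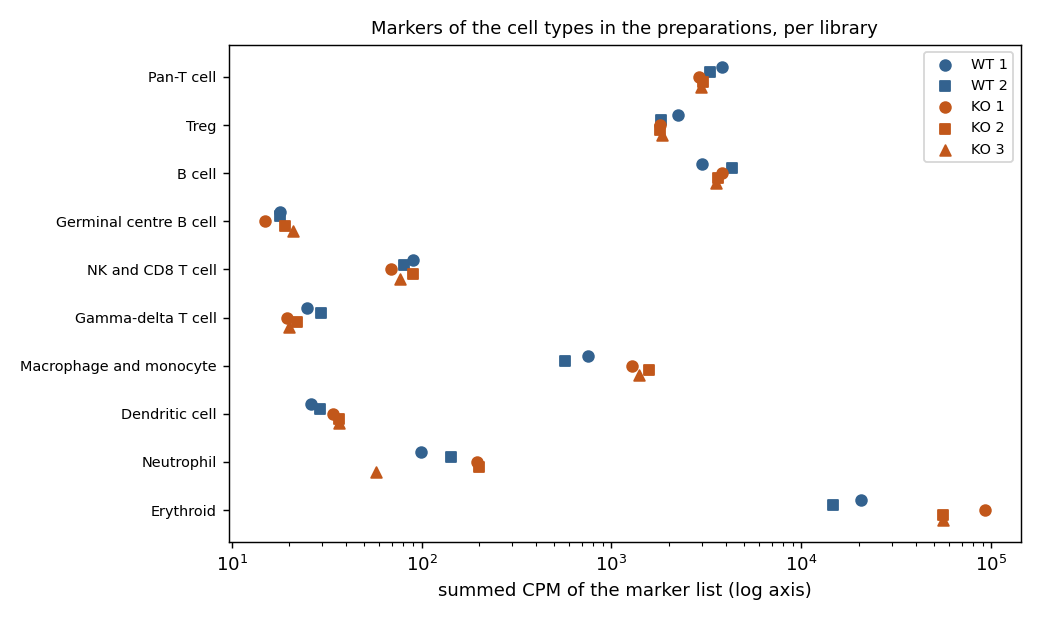
Summed CPM of each marker list (x axis, log scale) in each of the 5 libraries (WT in blue, KO in orange, symbols for replicates). The erythroid and the macrophage and monocyte lists are higher in every KO library, the pan-T cell and gamma-delta T cell lists are lower, and the B cell list overlaps.

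None of the 9 program genes passed the test of KO against WT at a false discovery rate of 0.05 when all genes were tested (quasi-likelihood test of edgeR, p-values adjusted by Benjamini-Hochberg), against 0.284% of all genes tested. That edgeR test also passed 0 of the 12 erythroid markers, whose log2 changes ran from 1.58 to 2.34, while DESeq2 passed all 12. A lack of edgeR calls thus does not show a lack of change. By the DESeq2 Wald test 0 of the 9 passed as well, beside 5.62% of all genes tested that passed as higher and 1.45% as lower. At an unadjusted edgeR p under 0.05 there was 1, Il18r1, which was higher, beside 10.7% higher and 5.62% lower over all genes. The fitted log2 changes of the 9 ran from −0.38 for Ifng to 0.24 for Il18r1. Il18r1 was the only member with a positive value, beside 6751 of all 14460 genes tested. The median of the 9 was −0.14 beside a median of −0.01 over all genes tested. These signs depended on the scaling. Scaling the libraries to the 15 pan-T cell genes raised log2 changes over all genes by a median of 0.27. There 7 of the 9 had positive values, beside 13083 of all 14460 genes tested. The median of the 9 was then 0.14 beside 0.26 over all genes tested. In that scaling every KO library exceeded both WT libraries for 3 members, Il18r1, Stat4 and Stat3, as they did for 56.6% of all genes tested.

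**Figure D2:**
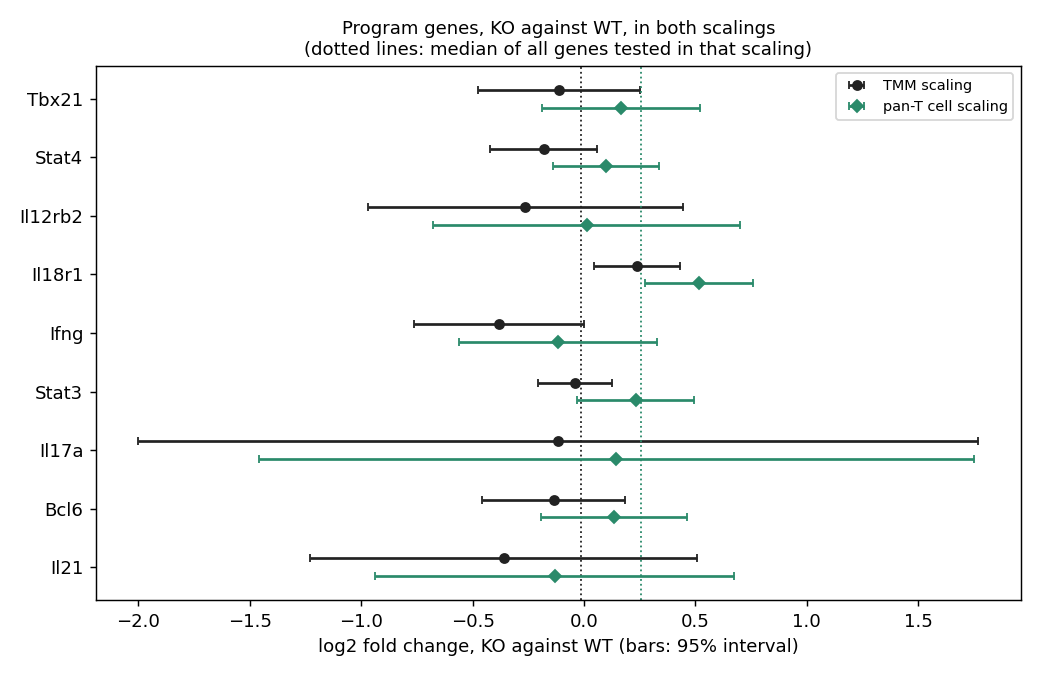
Log2 fold change, KO against WT, of each program gene (x axis) with its 95% interval, in TMM scaling (black circles) and in pan-T cell scaling (green diamonds). Dotted lines mark the median of all genes tested, −0.01 and 0.26. Il18r1 lies furthest to the right in both scalings, and the Il17a interval is the widest.

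In TMM scaling, Il18r1 and Ifng were the members whose WT and KO libraries did not overlap, in opposite directions. Of all genes tested, 17.6% lay higher and 17.4% lower in every KO library. Their promoters are shown with that of Tbx21, the factor that drives Ifng, because the factor removed in KO belongs to a family that binds CACCC and GC boxes. The RefSeq windows (GRCm38.p6, 250 bases before to 50 after the start nearest to that of the deposited gene) are Il18r1 at chr1:40465302-40465601 on the plus strand, Ifng at chr10:118440796-118441095 on the plus strand and Tbx21 at chr11:97115282-97115581 on the minus strand. Capitals mark each CACCC box and each GGGCGG box, on either strand.
Il18r1: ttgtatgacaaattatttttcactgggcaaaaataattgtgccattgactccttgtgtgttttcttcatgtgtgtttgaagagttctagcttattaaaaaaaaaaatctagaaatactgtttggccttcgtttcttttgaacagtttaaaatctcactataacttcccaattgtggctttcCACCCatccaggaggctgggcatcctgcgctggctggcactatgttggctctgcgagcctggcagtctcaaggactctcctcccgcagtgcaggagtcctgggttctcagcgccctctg
Ifng: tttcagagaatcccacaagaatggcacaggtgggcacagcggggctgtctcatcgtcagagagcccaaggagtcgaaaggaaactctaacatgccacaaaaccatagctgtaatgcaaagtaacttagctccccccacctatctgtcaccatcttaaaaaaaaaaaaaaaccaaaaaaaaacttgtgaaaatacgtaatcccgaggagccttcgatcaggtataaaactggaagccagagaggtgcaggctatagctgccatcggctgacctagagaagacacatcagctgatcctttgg
Tbx21: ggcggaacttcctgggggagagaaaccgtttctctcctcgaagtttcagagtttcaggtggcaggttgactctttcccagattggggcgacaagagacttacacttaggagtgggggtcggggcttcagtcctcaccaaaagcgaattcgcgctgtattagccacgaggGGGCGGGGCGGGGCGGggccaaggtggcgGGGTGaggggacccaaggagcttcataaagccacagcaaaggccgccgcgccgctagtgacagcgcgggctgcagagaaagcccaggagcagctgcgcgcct

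The Il18r1 window holds 1 CACCC box, which begins 69 bases before the start. The Ifng window holds neither box. The Tbx21 window holds 3 GGGCGG boxes that overlap by 1 base each and begin 81, 76 and 71 bases before the start, and 1 CACCC box at 52 bases. All 9 members matched a RefSeq promoter, and a CACCC box was found in 7 of the 9, against 57.5% of the 32851 promoters of the same length. The GGGCGG box was found in 3 (Tbx21, Stat3 and Bcl6), against 35.7% of all promoters. The letters TTCNNNGAA, the core of sites bound by STAT proteins, were found in 3 (Ifng, Il12rb2 and Bcl6), against 8.3% of all promoters. In Ifng they begin 249 bases before the start.

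Among the Th1 receptors, Il18r1, which encodes the ligand-binding chain of the IL-18 receptor, lies on chromosome 1 from 40465552 to 40500854 (plus strand, GRCm38). Its levels were 60.4 and 52.0 CPM in the WT libraries and 64.6, 66.1 and 68.3 CPM in the KO libraries. The lowest KO library lay above the highest WT library, as in 17.6% of all genes tested, and the KO values were closer to each other than the WT values. The means were 56.2 ± 5.96 CPM in WT (SD, n = 2) and 66.3 ± 1.86 CPM in KO (SD, n = 3), a 1.18-fold difference with a 95% interval of 1.03 to 1.35 (log2 change 0.24, SE 0.08). It missed the threshold over all genes (adjusted p = 0.212 by edgeR, unadjusted p = 0.0233, and adjusted p = 0.187 by DESeq2). Over all genes, 10.7% were higher in KO at an unadjusted p under 0.05.

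With pan-T cell scaling, the Il18r1 libraries were at 49.8 and 50.2 CPM in WT and at 70.4, 69.7 and 74.5 CPM in KO. The WT libraries then lay close together and well below every KO library. The log2 change was 0.52 (SE 0.11), and Il18r1 passed over all genes (adjusted p = 0.0176 by edgeR), as did 8.94% of all genes in that direction. It was the only member to pass there. With the libraries scaled to the 8 Treg genes instead, an alternative that was added once the data had been seen, its log2 change was 0.37 (adjusted p = 0.150 by edgeR). The macrophage and erythroid lists were higher in the same KO libraries, and their part in the Il18r1 values was not tested.

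The IL-18 receptor has a second, signal-carrying chain encoded by Il18rap, named here after its values were seen. Il18rap was at 15.7 and 15.6 CPM in WT and at 15.7, 18.9 and 15.3 CPM in KO. The groups overlapped, with a log2 change of 0.09 (SE 0.12, adjusted p = 0.763 by edgeR), and whether it differs from that of Il18r1 was not tested.

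Il12rb2, the IL-12 receptor chain that marks Th1 commitment, lies on chromosome 6 from 67291318 to 67376188 (minus strand). It had 53 and 41 counts in WT and 25, 41 and 49 counts in KO. KO replicate 1 had the lowest count, and the other KO libraries lay within or near the WT range. In scaled terms it was at 1.66 ± 0.123 CPM in WT (SD, n = 2) and 1.38 ± 0.349 CPM in KO (SD, n = 3), a 0.833-fold level with an interval of 0.511 to 1.36 (log2 change −0.26, adjusted p = 0.717 by edgeR). Without KO replicate 1 the log2 change was −0.066 (adjusted p = 0.953 by edgeR), and leaving out each other library it lay between −0.38 and −0.18. Such counts leave room for a sizeable change in either direction. Il12rb2 also overlaps 6419 bases of Serbp1 on the opposite strand, a gene with 14545 to 17366 counts per library, and whether counting used strand is not stated.

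Stat4, which carries the IL-12 signal, lies on chromosome 1 from 51987148 to 52107189 (plus strand). Its levels were 74.1 and 59.6 CPM in WT and 58.0, 61.1 and 58.0 CPM in KO. WT replicate 1 stood above the other 4 libraries, and WT replicate 2 lay inside the KO range. The log2 change was −0.18 (SE 0.10, adjusted p = 0.435 by edgeR), and in pan-T cell scaling it was 0.10 (SE 0.11). Leaving out WT replicate 1, the TMM-scaled value was −0.01 (adjusted p = 0.964 by edgeR), and without WT replicate 2 it was −0.33 (adjusted p = 0.196 by edgeR).

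Tbx21, the gene of T-bet, lies on chromosome 11 from 97098071 to 97115331 (minus strand). Its levels were 13.9 and 11.8 CPM in WT and 10.1, 12.7 and 13.0 CPM in KO. KO replicate 1 was the lowest, and the other KO libraries lay between the WT libraries. The log2 change was −0.11, with a 95% interval from −0.47 to 0.25 (adjusted p = 0.771 by edgeR), and 0.17 with pan-T cell scaling (adjusted p = 0.429 by edgeR).

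Ifng, the effector cytokine of the Th1 program, lies on chromosome 10 from 118441047 to 118445892 (plus strand). It had 274 and 278 counts in WT and 222, 192 and 206 counts in KO, or 9.04 and 10.7 CPM against 8.69, 7.30 and 6.75 CPM. All KO libraries lay below both WT libraries, as in 17.4% of all genes, with the nearest pair, WT replicate 1 and KO replicate 1, only a little apart. The means were 9.85 ± 1.15 CPM (SD, n = 2) and 7.58 ± 1.0 CPM (SD, n = 3), a 0.769-fold level with an interval of 0.590 to 1.002 (log2 change −0.38, SE 0.16, adjusted p = 0.308 by edgeR, unadjusted p = 0.0510). After pan-T cell scaling the log2 change was −0.12 (SE 0.20, adjusted p = 0.656 by edgeR) and the groups overlapped.

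Other lymphocytes that make interferon-γ were measured in the same libraries. The 5 gamma-delta T cell markers summed to 25.1 to 29.5 CPM in WT and 19.4 to 22.2 CPM in KO, and for 3 of the 5 all KO libraries lay below both WT libraries. The 9 markers of natural killer and CD8 T cells summed to 80.8 to 90.4 CPM in WT and 68.7 to 90.1 CPM in KO, with 3 of the 9 lower in every KO library, beside 17.4% of all genes tested for both counts. None of these markers was at 0 in any library. Their part in the Ifng values was not tested.

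**Figure D3:**
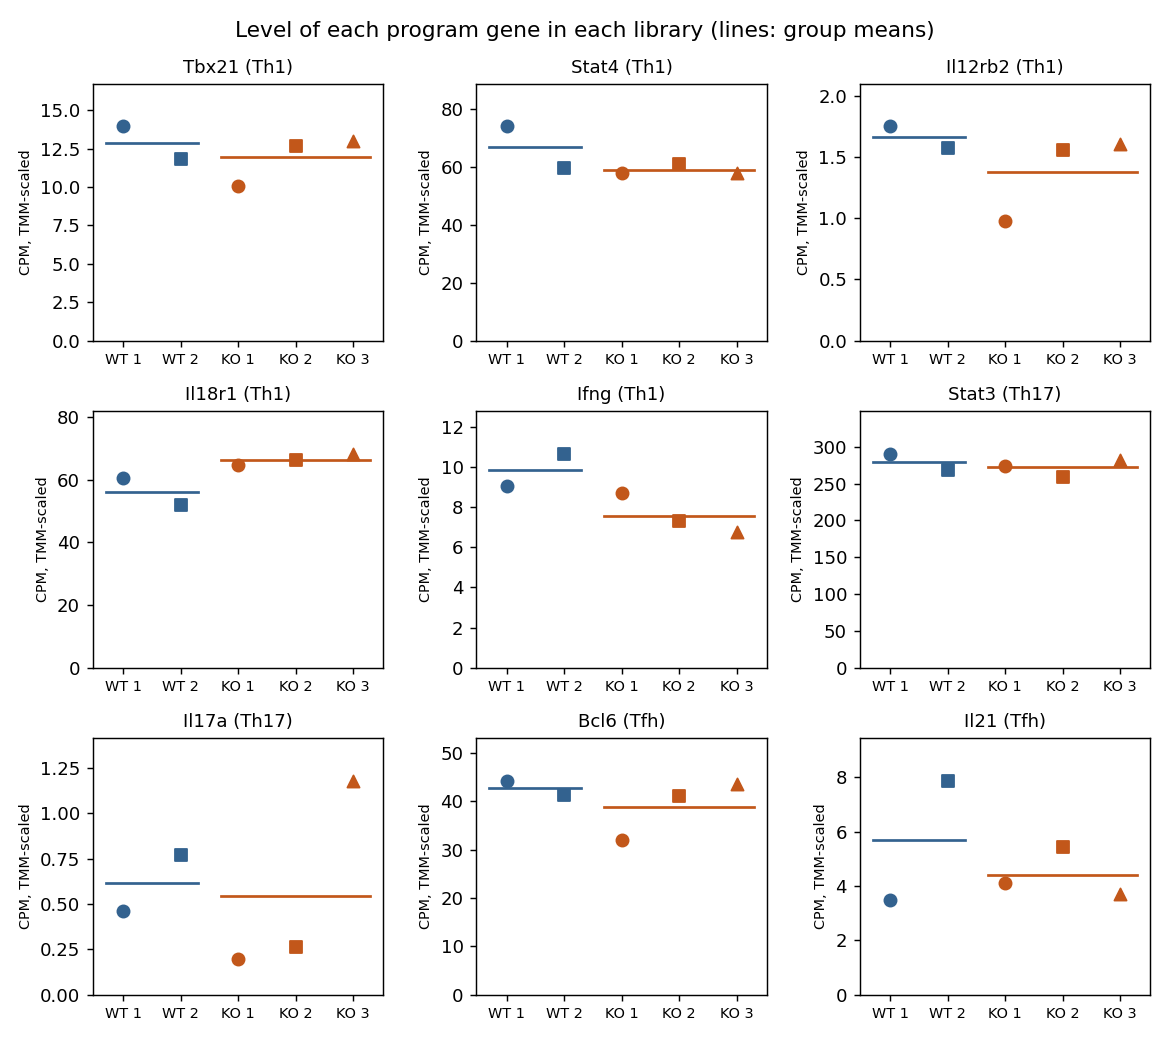
TMM-scaled CPM (y axes, each from 0) of the 9 program genes in WT replicates 1 and 2 (blue) and KO replicates 1 to 3 (orange), with horizontal lines at the group means. The groups are apart for Il18r1 (higher, as in 17.6% of all genes tested) and Ifng (lower, as in 17.4%), and overlap for the other genes.

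Of the Th17 genes, Stat3 was the most abundant and the most even member. It lies on chromosome 11 from 100885098 to 100939540 (minus strand) and shares 72 bases at its edge with Stat5a on the opposite strand. Its levels were 290.8 and 268.9 CPM in WT and 274.1, 259.2 and 282.8 CPM in KO. The groups overlapped, and the highest library exceeded the lowest 1.12-fold. The log2 change of −0.04 had a 95% interval from −0.21 to 0.13, which is 0.866-fold to 1.09-fold (adjusted p = 0.821 by edgeR). With pan-T cell scaling it was 0.23 (SE 0.12, adjusted p = 0.196 by edgeR).

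Il17a, the cytokine that defines Th17 cells, lies on chromosome 1 from 20730905 to 20734496 (plus strand) and had few counts. It had 14 and 20 counts in WT and 5, 7 and 36 counts in KO. KO replicate 3 was the highest of all libraries and the other KO libraries were the lowest, a 6.03-fold range on the CPM scale. The fitted fold of 0.923 had an interval of 0.250 to 3.41 (adjusted p = 0.962 by edgeR), which leaves room for a sizeable change in either direction. The log2 change was −0.12 with all libraries and −1.37 without KO replicate 3.

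Bcl6, the repressor that defines Tfh cells, lies on chromosome 16 from 23965052 to 23988852 (minus strand). Its levels were 44.2 and 41.3 CPM in WT and 32.1, 41.1 and 43.5 CPM in KO. KO replicate 1 was the lowest, as it was for Tbx21, Il12rb2 and Il17a, while KO replicate 3 lay inside the WT range. The log2 change was −0.14 (SE 0.13, adjusted p = 0.674 by edgeR), and −0.01 without KO replicate 1. Bcl6 is also a gene of germinal centre B cells. The 5 markers of those cells summed to 18.01 and 17.96 CPM in WT and to 15.02 to 21.12 CPM in KO, lowest in KO replicate 1, and their part in the Bcl6 values was not tested.

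Il21, the cytokine of Tfh cells, lies on chromosome 3 from 37222759 to 37232636 (minus strand). It had 106 and 205 counts in WT and 105, 143 and 113 counts in KO. WT replicate 2 held the highest value and WT replicate 1 the lowest on the CPM scale, 7.87 against 3.50 CPM, with all KO libraries between them. The fitted log2 change of −0.36 (SE 0.36, adjusted p = 0.682 by edgeR) turned with the WT library used. It was −0.84 without WT replicate 1 and 0.33 without WT replicate 2. The B cell marker list was likewise higher in WT replicate 2 than in WT replicate 1 (4306 against 2983 CPM), and its part in the Il21 values was not tested.

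The 9 genes spanned a wide range of levels per length, given here as the authors' TPM (a measure that divides by gene length and sums to 1000000 in each library). Stat3 led with a mean of 68.4 TPM over the 5 libraries (60.1 to 79.0). Stat4 followed at 38.2 TPM (31.3 to 49.5) and Il18r1 at 30.5 TPM (26.99 to 32.9). The ranges of this pair overlapped, but Stat4 exceeded Il18r1 within every library. Ifng at 16.7 TPM, Bcl6 at 14.4 TPM and Tbx21 at 11.8 TPM also overlapped in their ranges. Within every library Ifng and Bcl6 both exceeded Tbx21, while the order of Ifng and Bcl6 differed between libraries. Il21 was at 3.71 TPM (2.72 to 6.23), below every value of Tbx21. Il17a at 1.18 TPM (0.349 to 2.34) and Il12rb2 at 0.942 TPM (0.539 to 1.19) came last and overlapped each other. The signal transducers of the programs were measured at higher levels than their cytokines.

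**Figure D4:**
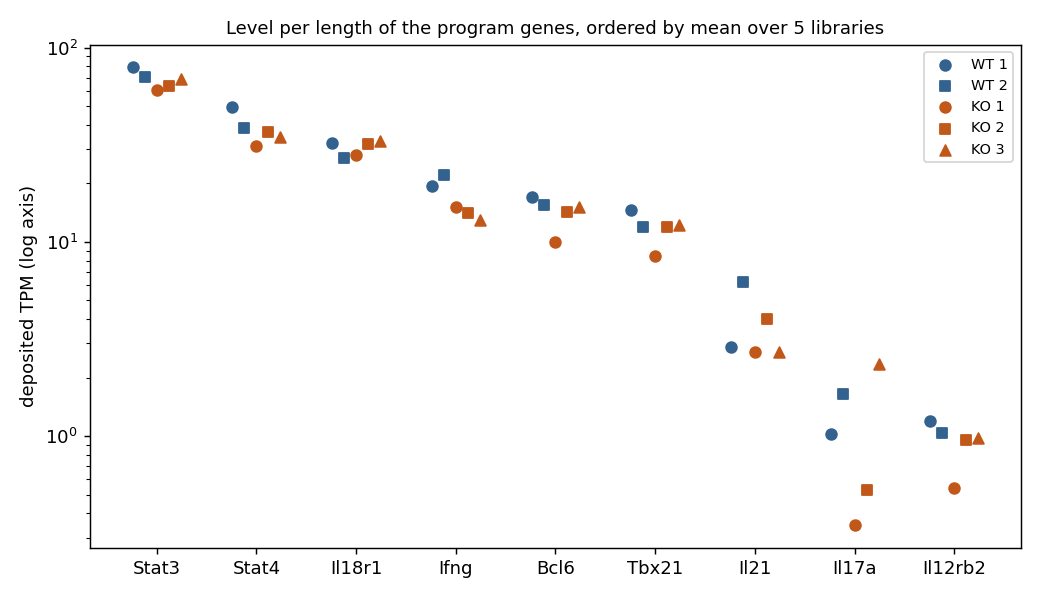
Deposited TPM (y axis, log scale) of the 9 program genes in each library, ordered by the mean over the 5 libraries. Stat3 stands above all others at 60.1 to 79.0 TPM, and Il21, Il17a and Il12rb2 lie below the rest.

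In a wider set of genes of the same pathways, 58 were tested (20 of 22 in the Th1 list, 16 of 19 in the Th17 list and 22 of 23 in the Tfh list), and 0 of them passed over all genes by edgeR. The genes with too few counts were Il2, Twist1, Il17f, Il22, Ccl20 and Ascl2. The median log2 changes were −0.03 for the Th1 list, 0.08 for the Th17 list and −0.08 for the Tfh list, beside −0.01 over all genes. At an unadjusted p under 0.05, the Th1 list held 3 higher and 2 lower genes, the Th17 list 1 higher and 5 lower, and the Tfh list 3 higher and 7 lower, beside 10.7% higher and 5.62% lower over all genes. By DESeq2, 0 Th1 and 0 Th17 genes passed, and 1 Tfh gene rose and 2 fell, beside 5.62% and 1.45% of all genes.

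In the Tfh list, Maf, the factor that drives Il21 and Il4 transcription, was at 179 and 170 CPM in WT and at 224, 267 and 250 CPM in KO. The lowest KO library was above the highest WT library, as in 17.6% of all genes tested. The difference was 1.42-fold with an interval of 1.22 to 1.64 (adjusted p = 0.0723 by edgeR, 6.4e-05 by DESeq2). Maf passed with pan-T cell scaling at a log2 change of 0.77 (adjusted p = 0.00561 by edgeR). Maf is expressed in macrophages too, and macrophage markers were higher in the same libraries. Their part in the Maf values was not tested. Pdcd1, which encodes the inhibitory receptor PD-1, was at 36.6 ± 1.91 CPM (SD, n = 2) and 47.4 ± 5.89 CPM (SD, n = 3; adjusted p = 0.178 by edgeR), and it also passed with pan-T cell scaling (log2 change 0.65, adjusted p = 0.0169 by edgeR).

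Tcf7, the gene of TCF-1, which acts upstream of Bcl6 and also marks naive T cells, was at 357 and 307 CPM in WT and at 248, 257 and 273 CPM in KO. It lay lower in every KO library, as did 17.4% of all genes tested (log2 change −0.36, SE 0.08, adjusted p = 0.109 by edgeR, 0.0120 by DESeq2). Id3, an inhibitor of E proteins, was at 49.2 ± 7.08 CPM (SD, n = 2) and 34.5 ± 5.19 CPM (SD, n = 3; log2 change −0.51, adjusted p = 0.153 by edgeR, 0.0435 by DESeq2). Scaled to pan-T cell genes, their log2 changes were −0.08 and −0.23 (adjusted p = 0.598 and 0.254 by edgeR), beside a median of 0.26 over all genes. The pan-T cell markers were lower in the same libraries.

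In the Th1 list, Fasl, the death ligand of effector lymphocytes, had 132 and 94 counts in WT and 57, 55 and 77 counts in KO (log2 change −0.80, SE 0.20, adjusted p = 0.115 by edgeR, 0.0526 by DESeq2). Lta, the gene of lymphotoxin-α, was at 29.9 ± 6.31 CPM (SD, n = 2) and 22.3 ± 2.08 CPM (SD, n = 3; log2 change −0.42, adjusted p = 0.231 by edgeR). For both, the KO libraries lay below the WT libraries, as they did for Ifng and for 17.4% of all genes tested. Scaled to pan-T cell genes, the log2 changes of Fasl and Lta were −0.52 and −0.14 (adjusted p = 0.152 and 0.444 by edgeR), and the groups then overlapped for Lta. The chemokine gene Ccl5 went the other way. It was at 19.6 ± 1.79 CPM (SD, n = 2) and 26.6 ± 4.25 CPM (SD, n = 3; log2 change 0.44, adjusted p = 0.222 by edgeR). Ccl5 and Il12rb1 were the Th1 genes that passed with pan-T cell scaling (adjusted p = 0.0387 and 0.0478 by edgeR).

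In the Th17 list, Il6ra and Il6st lay lower in every KO library, as did 17.4% of all genes tested. Il6ra, the IL-6 receptor, was at 184 and 157 CPM in WT and at 150, 143 and 138 CPM in KO (log2 change −0.25, SE 0.09, adjusted p = 0.221 by edgeR). Il6st, the shared signalling chain gp130, was at 200 and 162 CPM in WT and at 141, 135 and 159 CPM in KO (log2 change −0.32, SE 0.11, adjusted p = 0.232 by edgeR). Scaled to pan-T cell genes, their log2 changes were 0.03 and −0.04, beside 0.26 over all genes, and the groups overlapped. Nfkbiz, the gene of IκBζ, was at 159 ± 10.4 CPM (SD, n = 2) and 138 ± 6.58 CPM (SD, n = 3; log2 change −0.21, adjusted p = 0.213 by edgeR), and its log2 change was 0.06 with pan-T cell scaling. Il1r1, the receptor of IL-1, was higher in every KO library, as were 17.6% of all genes tested. It had 126 and 110 counts in WT and 144, 174 and 190 counts in KO (log2 change 0.56, SE 0.15, adjusted p = 0.142 by edgeR). Il1r1 passed with pan-T cell scaling (adjusted p = 0.0278 by edgeR).

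**Figure D5:**
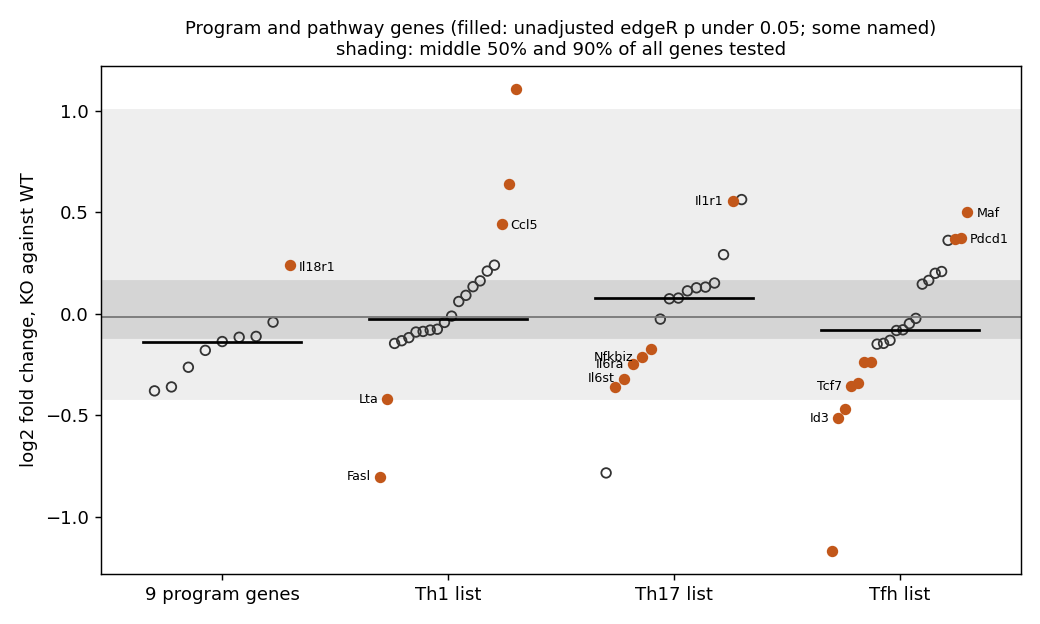
Log2 fold change, KO against WT (y axis), of the 9 program genes and of the tested genes of the Th1, Th17 and Tfh lists, with list medians as black bars. Filled points have an unadjusted edgeR p under 0.05. The Th1, Th17 and Tfh medians, from −0.08 to 0.08, lie between the quartiles of all genes tested (−0.12 and 0.16, median −0.01, grey line). The median of the 9 program genes, −0.14, lies just below the lower quartile. No point passed over all genes by edgeR, while Maf, Tcf7 and Id3 passed by DESeq2.

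The profile of each member with a mean of at least 50 counts per library was set beside that of 11195 other named genes by the root mean square distance between log2 CPM values, each centred on its own mean over the 5 libraries. Closest to Il18r1 were Mapkapk3, Bmp7 and Slc45a4, at distances of 0.0152, 0.0169 and 0.0179, beside a spread of 0.140 for Il18r1 itself. Closest to Ifng were Cers6, Mipol1 and Dusp10, at 0.0487, 0.0629 and 0.0781 beside a spread of 0.232. Il21 lay closest to the immunoglobulin gene Igkv10-96 at 0.0834, then to Ltb4r1 and Igkv2-112 at 0.131 each, beside a spread of 0.427. For Tbx21 the closest were Kdm5d, Gvin1 and Tlr1, for Stat4 Xlr4b, mt-Cytb and Adamts10, for Stat3 Efr3a, Marf1 and Champ1, and for Bcl6 Xpa, Osgin2 and Btbd2. With 5 libraries and this many genes, close matches are to be found for nearly any profile.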

How the data were processed

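The data are 5 RNA-seq libraries, 2 WT and 3 KO, made after ribosomal RNA depletion, per the labels' protocols. Trimming with Trimmomatic 0.36 and alignment with STAR 2.5.2b to GRCm38 are named in the submitters' processing notes. No source used here names the counting tool, the annotation or the strand setting, so reads of overlapping or antisense genes are uncertain. The authors deposited total counts per gene as whole numbers, with TPM and RPKM. The authors' own CPM column, whose library sums run from 976872 to 1054093, was treated as a score of unknown scaling and left out.

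After filterByExpr and TMM scaling, counts were tested in edgeR 4.0.16 under R 4.3.3 (estimateDisp, glmQLFit, glmQLFTest, genotype as the only term), with Benjamini-Hochberg adjustment over 14460 genes. SEs were taken as log2 change over the square root of F, and 95% intervals use the total degrees of freedom. The code was tested on simulated data. The biological coefficient of variation was 13.1%. Pairs of libraries within a group had a chi-square per degree of freedom of 16.5 to 39.1, above sampling noise, so none was a second copy of another. Replicate numbers are in the titles, but nothing says that they mark shared animals or batches. Promoters are from RefSeq and overlaps from GENCODE M21, of which every member except Ifng has the same start and end as in the deposited table.

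The members and lists were chosen with earlier results of these data known. The rule for named genes takes all members, Klf10, up to 4 genes of each pathway list with the smallest p among those with an unadjusted p under 0.05, and the 3 genes closest in profile to each member with enough counts. Some genes of the lists are counted but not reported here by name. Il18rap and Il12rb1 were named after their values were seen, as were the genes with too few counts. Alternatives were DESeq2 size factors, the DESeq2 1.42.0 Wald test, scaling to pan-T cell or Treg genes, no filter or a stricter one (a mean of 50 counts), robust empirical Bayes, a replicate block, leaving out each library, removing antigen receptor, haemoglobin, mitochondrial and ribosomal RNA genes, and a false discovery rate of 0.10.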

Additional observations from a re-analysis of the deposited data

How the results depend on the processing

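Over the alternatives, 108 of 124 log2 changes of the 9 members kept their direction and their side of the threshold. With pan-T cell scaling the values of Tbx21 (0.17), Il12rb2 (0.012), Stat4 (0.10), Il17a (0.15), Stat3 (0.23) and Bcl6 (0.14) turned positive without passing, and Il18r1 (0.52) passed, so 1 member was called. Values were positive there for 13083 of all 14460 genes tested. That scaling also called 2 higher genes in each of the Th1, Th17 and Tfh lists (of 20, 16 and 22 tested), beside 8.94% of all genes. With Treg scaling, added after the data were seen, Tbx21 was at 0.023 and Stat3 at 0.087, and 1 Tfh gene, Maf, was called. Maf was also the 1 higher Tfh gene called without the filter, by DESeq2 and at a false discovery rate of 0.10, and DESeq2 called 2 lower Tfh genes, Tcf7 and Id3. Leaving out each library in turn, log2 changes ran from −0.23 to 0.014 for Tbx21, from −1.37 to 0.28 for Il17a, from −0.098 to 0.017 for Stat3 and from −0.84 to 0.33 for Il21, no member was called, and 0 to 2 higher Tfh genes were called (2, Maf and Pdcd1, without KO replicate 1). Il18r1 stayed positive, from 0.13 without WT replicate 2 to 0.35 without WT replicate 1. Under the stricter filter Il12rb2 and Il17a were not tested. Deposited RPKM gave the same order of levels as TPM.

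With a replicate block 0 members were called, and the calls over all genes went from 33 higher and 8 lower to 27 and 5. Same-numbered libraries did not deviate together (correlations of −0.00014 and 0.0625 for replicates 1 and 2). The deviations of the 2 WT libraries from their mean mirror each other, so these correlations are not independent. They cannot tell whether a shared number marks a shared batch. The intervals of Il17a, Il12rb2 and Il21 were wide and leave room for sizeable changes in either direction. Il17a and Il12rb2 had few counts, and for Il21 the 2 WT libraries lay far apart (106 and 205 counts).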
